A study of Drosophila melanogaster with 6 samples.

Results

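Mitochondrial ribosomal protein (mRp) genes were examined in whole brains of wandering larvae of the fruit fly Drosophila melanogaster, pooled before RNA was taken. The genes were chosen by name: each CG number whose annotation symbol is mRpL or mRpS followed by a number was a member, and the rule itself uses no expression value. The rule gave 71 of the 14012 genes in the tables, 46 of the large subunit and 25 of the small subunit by symbol, with 77 transcripts. The annotation holds 73 such genes, and mRpL37 and mRpS34 have no CG number of their own in the tables.

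The samples form 3 groups of 2 pools each. Ablation larvae carried w, E347-GAL4 over a yw,UAS-ShiDN chromosome and a second copy of the transgene as UAS-ShiDN/+, with pools of 100 and 91 brains. Activation larvae carried w, E347-GAL4 over yw together with UAS-NachBac on the third chromosome, with pools of 100 and 97 brains. Control larvae carried w, E347-GAL4 over w1118 and no UAS transgene, with pools of 100 and 86 brains. All 3 groups carried the E347-GAL4 driver, and all were kept at 25 °C with 35 g of yeast in each liter of food. ShiDN is a dominant-negative shibire protein (shibire is the dynamin of flies and pinches off endocytic vesicles), and the series calls its expression in E347 neurons ablation. NachBac is a bacterial sodium channel that makes neurons more excitable. The chromosome opposite the driver was w1118 in control and yw in both other groups, so that transgene and background cannot be told apart. Whole brains were sampled while the driver acts in a subset of neurons. In such bulk RNA, fewer cells of a type and less RNA per cell cannot be told apart.

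The mitochondrial ribosome translates the few messages of the mitochondrial genome, which encode core subunits of the respiratory chain and ATP synthase. Its protein components are all encoded in the nucleus, made on cytoplasmic ribosomes and imported. Many descend from bacterial ribosomal proteins and carry the bacterial number, and others were added to the ribosome during the evolution of mitochondria. A mutation that weakens the small subunit protein tko gives bang-sensitive seizures in flies, a known link between mitochondrial translation and the nervous system.

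The authors deposited 1 value per group for each transcript in FPKM, a unit scaled to transcript length and library size. Levels of genes were therefore set side by side, but how well the scaling holds for short transcripts was not tested. The loci of mRpL33 and mRpS18C, with 438 and 478 bases, are among the shortest of the members. No values per pool are in these tables. The spread between pools therefore cannot stand beside a value, and the depth of the libraries is unknown. Significance rests on the authors' deposited Cuffdiff p-values over both pools of each group. A call is a q (a p adjusted over all tested transcripts) of at most 0.05. The labels do not say whether the pools of a group came from separate cultures, so the spread between pools that enters these p-values may be technical. How Cuffdiff modelled that spread, and what other uncertainty it added, is not given in the sources used here. Where 3 groups are set side by side, ablation and control values come from the table of those groups and the activation value from the table of activation and control. Control values of the members were 1.03 times as high in the table of ablation and control as in that of activation and control, as a median.

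All 71 genes had a gene sum above 1 FPKM in every group. In ablation brains the gene sums (all transcripts of a gene added) spanned 3.02 to 345 FPKM with a median of 55.6 FPKM. In activation brains they spanned 10.2 to 317 FPKM with a median of 48.3 FPKM, and in control brains 3.59 to 224 FPKM with a median of 50.5 FPKM. The median over all tested genes was 22.5 FPKM in ablation brains and 21.7 FPKM in control brains, so the typical member lay above the typical tested gene. The members together made up 0.51% of all FPKM in ablation brains, 0.445% in activation brains and 0.466% in control brains. Both subunits stood at like levels: the large subunit median was 56.1 FPKM in ablation, 48.7 FPKM in activation and 49.7 FPKM in control brains. The small subunit median was 51.9 FPKM in ablation, 48.2 FPKM in activation and 52.8 FPKM in control brains.

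**Figure D1:**
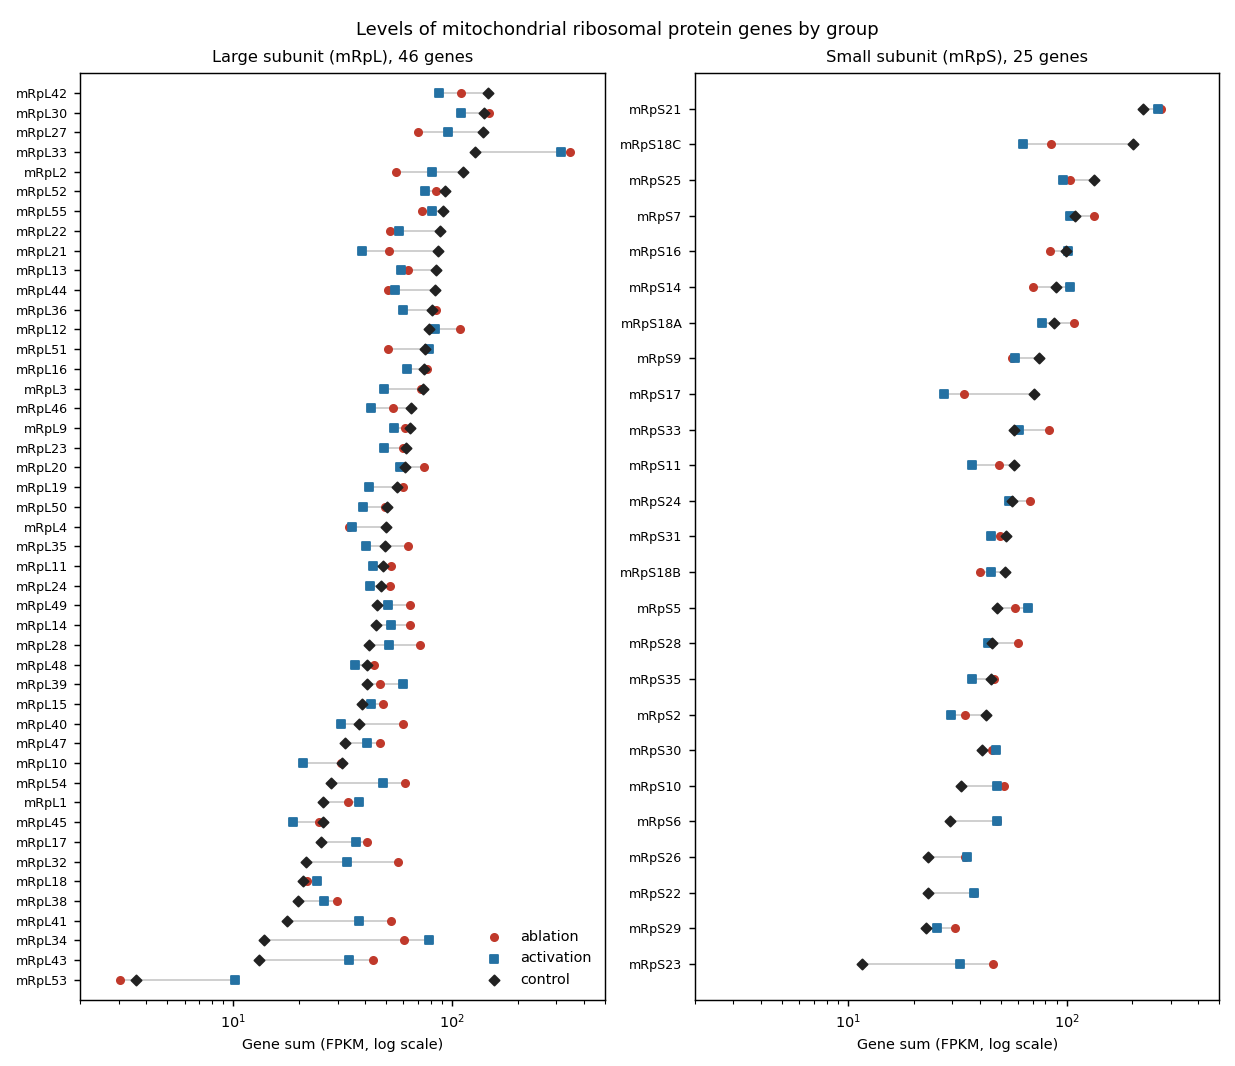
Gene sums of the 71 members on a log FPKM axis, 1 row per gene ordered by the control value, with the large subunit on the left and the small subunit on the right. Red circles are ablation, blue squares activation and black diamonds control, 1 group value each with no replicate error, and the grey line joins the lowest and the highest. mRpL33 at 345 FPKM in ablation and mRpS21 at 224 FPKM in control lead their groups, and mRpL53 is lowest in all 3.

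The highest members differed between groups. mRpL33, a small zinc-binding protein of the large subunit in some bacteria, was listed at 345 FPKM in ablation, 317 FPKM in activation and 127 FPKM in control brains. It ranked first of 71 in both manipulated groups and 7 in control. mRpS21, a small subunit protein with a bacterial counterpart, was listed at 272 FPKM in ablation, 261 FPKM in activation and 224 FPKM in control brains. It ranked 2 in both manipulated groups and first in control. mRpS18C had 85.0 FPKM in ablation, 63.1 FPKM in activation and 201 FPKM in control brains. It was the second highest member in control alone, with rank 9 in ablation and 18 in activation. mRpL30 had 147 FPKM in ablation, 110 FPKM in activation and 140 FPKM in control brains and stayed within the first 4 ranks of each group.

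By the mean of ablation and control values, mRpL53, mRpL18, mRpL38 and mRpL45 were the lowest members. In control alone mRpS23, mRpL43, mRpL34 and mRpL41, at 11.7 to 17.5 FPKM, were below all of these but mRpL53. In activation mRpL10, at 20.9 FPKM, was below mRpL18 and mRpL38. mRpL53 was listed at 3.02 FPKM in ablation, 10.2 FPKM in activation and 3.59 FPKM in control brains, the lowest member of each group. Its values are uncertain: its deposited log2 ratio over the deposited statistic, larger for a less certain ratio, was 8.78 in ablation against control. The member median of that measure was 0.88. mRpL18 had 21.8 FPKM in ablation, 24.2 FPKM in activation and 20.8 FPKM in control brains. The deposited locus of mRpL53 also holds AGO1 and CG33155, that of mRpL18 also Taz and ox, and that of mRpL45 also loco. mRpL38, alone at its locus, had 29.8 FPKM in ablation, 26.0 FPKM in activation and 19.7 FPKM in control brains. mRpL45, whose mammalian counterpart helps to hold the ribosome at the inner membrane, had 24.6 FPKM in ablation, 18.7 FPKM in activation and 25.7 FPKM in control brains.

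Ablation was set against control to find brain transcripts whose level goes with ShiDN in E347 neurons. Among the members 0 of 73 tested transcripts were called in the authors' deposited table, where 0.154% of all tested transcripts were called. At an unadjusted Cuffdiff p under 0.05 there were also 0, against 2.05% of all tested transcripts, and the smallest member p was 0.115. With an unadjusted p under 0.1 there were again 0, against 4.61% of all tested transcripts. Normal p-values taken from the deposited statistic, unadjusted, put 2 members (mRpL33 and mRpS18C) under 0.05. Of the 10873 tested transcripts with a finite statistic, 0.8% were under 0.05. Gene sums were higher in ablation than in control for 42 of 71 members, or 59.2%, close to the 56.4% of all tested genes. The median log2 change, taken on sums with 1 FPKM added, was 0.11, and over all genes tested it was 0.10. Changes of at least 1 in log2 were listed for 7 members (12.5% of all tested genes) and of at most -1 for 2 members (5.06% of all tested genes). Among the 7228 tested genes within the level range of the members, 54.6% were higher in ablation, the median was 0.07, and 745 were at 1 or above and 351 at -1 or below. That range runs, in each comparison, from the lowest mean sum of a member, that of mRpL53, to the highest. Here it took in 7228 of all 8512 tested genes, so it is no close match in level.

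The largest upward values in this comparison belonged to members with low control values. mRpL34, at chr2R:11986498-11990108 (dm3), had 60.7 FPKM in ablation and 13.8 FPKM in control brains, a log2 ratio of 2.14 with p = 0.490 in the authors' deposited table. mRpS23 had 46.0 FPKM in ablation and 11.7 FPKM in control brains, with a deposited log2 ratio of 1.98 and p = 0.337 in the authors' deposited table. mRpL43 had 43.8 FPKM in ablation and 13.2 FPKM in control brains, and mRpL41 had 52.4 FPKM in ablation and 17.5 FPKM in control brains. By level these 4 genes ranked from 67 to 70 of the 71 members in control brains, where they were near the bottom, and from 28 to 57 in ablation brains. Their loci each hold another gene: CG8414 with mRpL34, Polr2C with mRpS23, sigmar with mRpL43 and CG11808 with mRpL41. Of the 7 members at 1 or above, 5 share their locus with another gene, as do 37 of all 71 members. The counting of reads over overlapping genes, and whether it used strand, is not given in the sources used here. Reads of such neighbours may be split between them, and the part of this in the changes was not tested.

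The largest downward values belonged to members with control values above the member median of 50.5 FPKM, at ranks from 2 to 25 of 71 in control. The control value is itself part of each change, so the level in control and the change are not independent. mRpS18C, at chr3R:26249734-26250211 (dm3) with no other gene in its locus, had 85.0 FPKM in ablation and 201 FPKM in control brains. Its deposited log2 ratio was -1.24 with p = 0.122 in the authors' deposited table. mRpS17, also alone at its locus, had 34.0 FPKM in ablation and 71.1 FPKM in control brains (log2 ratio -1.06 and p = 0.203 in the authors' deposited table). mRpL2, a protein of the peptidyl transferase region, had 55.6 FPKM in ablation and 112 FPKM in control brains, with p = 0.183 in the authors' deposited table. mRpL27, whose bacterial counterpart reaches into the peptidyl transferase centre, had 70.0 FPKM in ablation and 138 FPKM in control brains, with p = 0.270 in the authors' deposited table. None of these passed the test.

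Activation was set against control in the same way, with NachBac in E347 neurons. Among 73 tested member transcripts 0 were called, where 0.0% of all tested transcripts were called in the authors' deposited table. At an unadjusted Cuffdiff p under 0.05 the count was 0, against 3.05% of all tested transcripts. With an unadjusted p under 0.1 there was 1 (mRpS18C), against 6.21% of all tested transcripts. Normal p-values from the statistic put 3 members (mRpL33, mRpL34 and mRpS18C) under 0.05 unadjusted, against 1.27% of the 11068 tested transcripts with a finite statistic. Gene sums were higher in activation than in control for 31 of 71 members, or 43.7%, against 56.6% of all tested genes. The median log2 change of the gene sums was -0.12, and over all genes tested it was 0.10. Changes of at least 1 were listed for 6 members (10.6% of all tested genes) and of at most -1 for 3 members (4.71% of all tested genes). Among the 6342 tested genes within the level range of the members, 51.8% were higher in activation, the median was 0.02, and 413 were at 1 or above and 275 at -1 or below.

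The smallest p of any member in the 3 comparisons came from mRpS18C here. It had 63.1 FPKM in activation and 196 FPKM in control brains, a log2 ratio of -1.63 with p = 0.0551 in the authors' deposited table, where its q was 0.915. mRpS17 had 27.5 FPKM in activation and 69.2 FPKM in control brains, and mRpL21 had 38.9 FPKM in activation and 83.7 FPKM in control brains. Their p-values were 0.113 and 0.116 in the authors' deposited table, and both genes are alone at their loci. mRpL42 had 87.7 FPKM in activation and 143 FPKM in control brains.

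On the upward side, mRpL33 had 317 FPKM in activation and 124 FPKM in control brains, a log2 ratio of 1.35 with p = 0.105 in the authors' deposited table. It lies at chrX:4215797-4216234 (dm3) with no other gene in its locus. mRpL34 had 78.8 FPKM in activation and 13.4 FPKM in control brains, the widest finite ratio of any member transcript (log2 2.55 and p = 0.449 in the authors' deposited table). mRpS23 had 32.7 FPKM in activation and 11.4 FPKM in control brains, and mRpL43 had 33.7 FPKM in activation and 12.9 FPKM in control brains. Of the 6 members at 1 or above in this comparison, 5 share their locus with another gene, as do 37 of all 71 members. The ablation and activation comparisons share the control pools, so a control value that is high or low enters both.

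**Figure D2:**
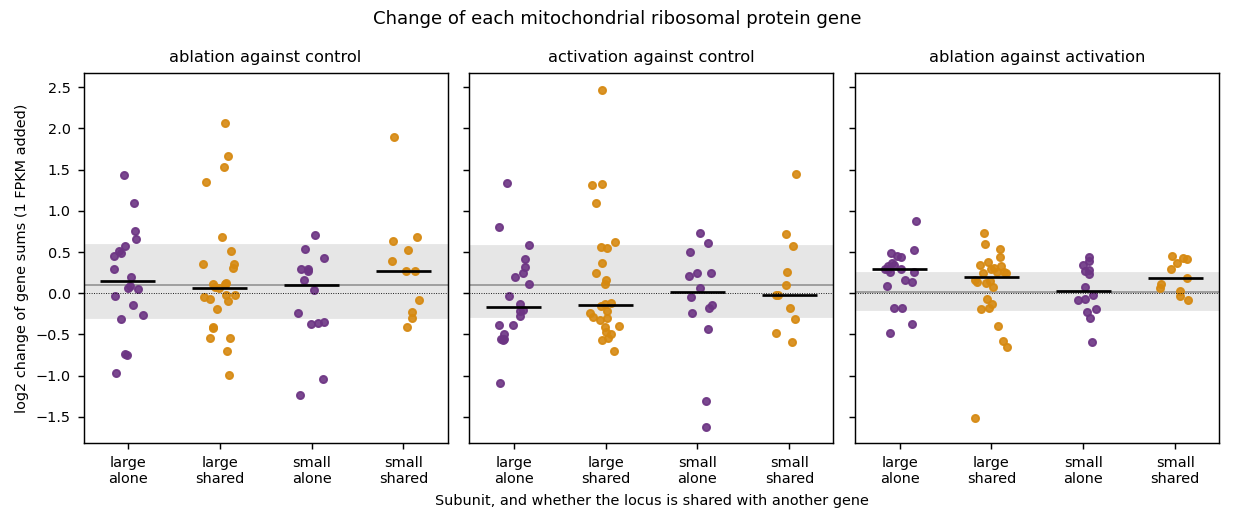
Change of each member's gene sum (log2, 1 FPKM added) in the 3 comparisons, by subunit and by whether the deposited locus holds another gene (purple, alone; orange, shared). Black bars are medians over members, the grey band is the interquartile range of all tested genes and the grey line their median. Member medians are 0.11, -0.12 and 0.24 from left to right, and the third panel spans less than both others apart from mRpL53 at -1.52.

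Ablation was compared with activation directly, without the control pools. Among 72 tested member transcripts 0 were called in the authors' deposited table, where 0.37% of all tested transcripts were called. At an unadjusted Cuffdiff p under 0.05 the count was 0, against 3.21% of all tested transcripts. With an unadjusted p under 0.1 there was 1 (mRpL40), against 5.6% of all tested transcripts. Normal p-values from the statistic put 0 under 0.05, against 1.25% of the 11556 tested transcripts with a finite statistic. Gene sums were higher in ablation than in activation for 50 of 71 members, or 70.4%, against 51.2% of all tested genes. The median log2 change was 0.24, and over all genes tested it was 0.01. A change of at least 1 in log2 was listed for 0 members (3.43% of all tested genes) and of at most -1 for 1 member, mRpL53 (3.39% of all tested genes). Among the 6661 tested genes within the level range of the members, 52.8% were higher in ablation, the median was 0.02, and 104 were at 1 or above and 64 at -1 or below. The large subunit had 34 of 46 genes higher in ablation with a median of 0.26, and the small subunit 16 of 25 with a median of 0.11. Tested transcripts at the level of the members' interquartile range that had an unadjusted p under 0.05 had an absolute log2 ratio of at least 0.67 in the authors' deposited table, with a median of 1.06. In ablation against control that smallest absolute log2 ratio was 0.80, and in activation against control it was 0.67. A shift of many genes together was not tested.

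mRpL40, alone at its locus, carried the smallest member p of this comparison. It had 58.6 FPKM in ablation and 31.4 FPKM in activation brains, a log2 ratio of 0.90 with p = 0.062 in the authors' deposited table, where its q was 0.999. mRpL32, whose counterpart in yeast and mouse is matured by the m-AAA protease before ribosome assembly, had 55.8 FPKM in ablation and 33.2 FPKM in activation brains (p = 0.165 in the authors' deposited table). mRpL35 had 62.3 FPKM in ablation and 40.7 FPKM in activation brains, and mRpL10 had 30.7 FPKM in ablation and 20.9 FPKM in activation brains. The lower side was led by mRpL53, with 2.96 FPKM in ablation and 10.3 FPKM in activation brains and p = 0.704 in the authors' deposited table. mRpL51 had 50.2 FPKM in ablation and 79.3 FPKM in activation brains, mRpS14 had 69.1 FPKM in ablation and 104 FPKM in activation brains, and mRpL2 had 54.7 FPKM in ablation and 82.0 FPKM in activation brains.

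**Figure D3:**
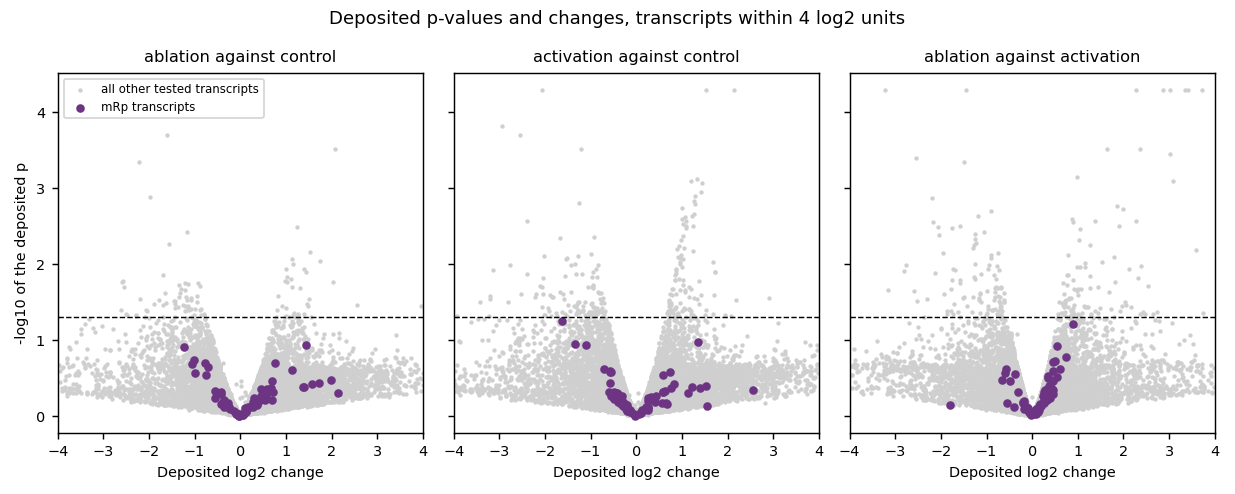
Deposited log2 ratio (horizontal) against -log10 of the deposited p (vertical) for tested transcripts with ratios within 4 log2 units. Purple points are mRp transcripts, grey points all others, and the dashed line marks an unadjusted 0.05. Every member point lies under that line in each panel, and mRpS18C in the activation panel comes closest to it.

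mRpL2, mRpL3 and mRpL16 belong to the part of the large subunit that builds the peptidyl transferase centre. mRpL2 had 55.6 FPKM in ablation, 81.4 FPKM in activation and 112 FPKM in control brains. mRpL3 had 72.2 FPKM in ablation, 48.8 FPKM in activation and 73.9 FPKM in control brains. mRpL16 had 76.9 FPKM in ablation, 62.6 FPKM in activation and 74.3 FPKM in control brains. In activation against control the value was lower in activation for all 3, with log2 changes of the gene sums of -0.41 for mRpL2, -0.55 for mRpL3 and -0.21 for mRpL16. In ablation against control the changes were -0.995 for mRpL2, -0.03 for mRpL3 and 0.05 for mRpL16. None of these passed the test. For mRpL3 the ablation against activation log2 ratio was 0.53 with p = 0.117 in the authors' deposited table. mRpL4, which lines the exit tunnel, had 33.9 FPKM in ablation, 35.0 FPKM in activation and 50.1 FPKM in control brains.

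mRpL10, mRpL11 and mRpL12 form the stalk and its base, where translation factors bind. mRpL12 had 108 FPKM in ablation, 83.4 FPKM in activation and 78.9 FPKM in control brains. mRpL10, which anchors copies of mRpL12 in the stalk, had 31.2 FPKM in ablation, 20.9 FPKM in activation and 31.6 FPKM in control brains. mRpL11 had 52.7 FPKM in ablation, 43.4 FPKM in activation and 48.5 FPKM in control brains. The order mRpL12 above mRpL11 above mRpL10 held in each group. mRpL44, a large subunit protein with an RNase III-like fold, had 51.2 FPKM in ablation, 54.7 FPKM in activation and 84.1 FPKM in control brains.

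Flies have 3 mRpS18 genes related to 1 bacterial protein; in mammals the A form sits in the large subunit and the B and C forms in the small subunit. Subunits were assigned by symbol alone, so mRpS18A was counted with the small subunit here. mRpS18A had 108 FPKM in ablation, 77.6 FPKM in activation and 87.9 FPKM in control brains. mRpS18B had 40.1 FPKM in ablation, 45.0 FPKM in activation and 52.2 FPKM in control brains. Control brains thus had the C form highest of the 3 at 201 FPKM, and both manipulated groups had the A form highest. The change in order came from the mRpS18C values given above, which did not pass the test, and a difference between the paralogs was not tested. Each of the 3 genes is alone at its locus.

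Of the other small subunit proteins with a described role, mRpS7, a protein of the head of the subunit, had 134 FPKM in ablation, 103 FPKM in activation and 109 FPKM in control brains. mRpS5 had 58.2 FPKM in ablation, 66.6 FPKM in activation and 47.9 FPKM in control brains. mRpS29, the GTP-binding protein known in mammals as DAP3, had 30.9 FPKM in ablation, 25.7 FPKM in activation and 22.7 FPKM in control brains. The smallest p of these 3 genes was 0.293, for mRpS7 in ablation against activation in the authors' deposited table.

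Proteins with a bacterial number (mRpL1 to mRpL36 and mRpS2 to mRpS21, 42 genes) were set beside the 29 with a higher number. Among those 29, at least mRpL47, mRpS24 and mRpS28 have bacterial counterparts under other numbers. The number therefore does not by itself tell which members have a bacterial counterpart. In ablation against control, 24 of the 42 and 18 of the 29 were higher in ablation, with median log2 changes of 0.07 and 0.20. In activation against control, 16 of the 42 and 15 of the 29 were higher in activation, with medians of -0.16 and 0.11. In ablation against activation, 29 of the 42 and 21 of the 29 were higher in ablation, with medians of 0.21 and 0.26. The difference between these classes was not tested.

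The levels of the members lay closer together in both manipulated groups than in control. In ablation brains 4 members were under 30 FPKM and 13 at or above 80 FPKM, against 16 under 30 FPKM and 19 at or above 80 FPKM in control brains. Activation brains had 8 members under 30 FPKM and 12 at or above 80 FPKM, against 16 and 18 in control brains of the same table. The upper quartile over the lower quartile was 1.53 in ablation brains and 2.52 in control brains, and 1.68 in activation brains. Over the 8381 tested genes with a mean of at least 1 FPKM that ratio was 5.10 in ablation and 6.37 in control brains, and 5.44 in activation and 6.35 in control brains. All tested genes together thus also spread more widely in control. Of them 4901 were under 30 FPKM and 1305 at or above 80 FPKM in ablation brains, against 5017 and 1348 in control brains. In activation brains the counts were 5026 and 1293, against 5082 and 1309 in control brains of the same table. For nuclear respiratory chain and ATP synthase genes it was 3.85 in ablation and 3.96 in control brains, and 3.56 in activation and 3.96 in control brains. Cytoplasmic ribosomal protein genes had 1.99 in ablation and 2.25 in control brains, and 1.54 in activation and 2.18 in control brains. Proteasome genes had 1.66 in ablation and 1.63 in control brains, and 1.80 in activation and 1.67 in control brains. These ratios describe group values, and with no values per pool the share of 1 pool in them is unknown.

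Only 5 members have more than 1 annotated transcript. mRpL47 was listed with a different transcript content in control: its RA transcript stood at 0 in ablation, 0 in activation and 14.3 FPKM in control brains. Its RB transcript stood at 46.8 FPKM in ablation, 41.0 FPKM in activation and 18.1 FPKM in control brains. For RA the p was 0.133 in ablation against control and 0.151 in activation against control in the authors' deposited table, so the difference did not pass the test, and the locus also holds CG8176, Kdm3 and Rlb1. mRpS5 had its RA transcript at 39.6 FPKM in ablation, 40.0 FPKM in activation and 30.7 FPKM in control brains, and its RD transcript at 18.6 FPKM in ablation, 26.6 FPKM in activation and 17.2 FPKM in control brains. The second transcripts of mRpL23, mRpS10 and mRpS18B were at or near 0 in every group and were not tested.

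The members lie on all large chromosome arms, with 11 on X, 12 on 2L, 12 on 2R, 16 on 3L, 20 on 3R and 0 on the fourth chromosome. Of the 71 loci 34 hold the member alone and 37 hold at least 1 other gene. The median log2 change in ablation against control was 0.13 for members alone at their locus and 0.11 for members in shared loci. In activation against control it was -0.08 for members alone and -0.12 for members in shared loci. In ablation against activation it was 0.26 for members alone and 0.18 for members in shared loci. The deposited log2 ratio divided by the deposited statistic is larger for a less certain ratio. Its median in ablation against control was 0.69 for members alone and 1.15 for members in shared loci. In activation against control it was 0.67 and 1.09, and in ablation against activation 0.42 and 0.63. Members in shared loci were thus tested with more uncertainty.

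Other genes of mitochondrial translation and mitochondrial gene expression were likewise not called. Of 10 translation factors, 17 tRNA synthetase and amidotransferase genes and 15 genes of mitochondrial DNA, transcription and RNA, 0 transcripts had a q of at most 0.05 in any of the 3 comparisons in the authors' deposited table. These lists gave 10, 17 and 15 tested transcripts in each comparison. Of all tested transcripts 0.154% were called in ablation against control, 0.0% in activation against control and 0.37% in ablation against activation. At an unadjusted p under 0.05 there were 0 in ablation against control, 2 in activation against control and 0 in ablation against activation, where 2.05%, 3.05% and 3.21% of all tested transcripts passed. OXA1L-RB, from the gene of the insertase that receives new mitochondrial proteins at the inner membrane, had 13.0 FPKM in activation and 39.1 FPKM in control brains (p = 0.0288 in the authors' deposited table). scu, an enzyme of fatty acid breakdown that is also a subunit of mitochondrial RNase P, had 139 FPKM in activation and 66.6 FPKM in control brains (p = 0.0217 in the authors' deposited table). In ablation against control 5 of the 10 translation factors, 10 of the 17 synthetase genes and 13 of the 15 DNA, transcription and RNA genes had a higher sum in ablation, with median log2 changes of 0.16, 0.50 and 0.15, beside 56.4% of all tested genes. In activation against control 5, 10 and 9 of them were higher in activation, with medians of 0.11, 0.19 and 0.17, beside 56.6% of all tested genes and a member median of -0.12. In ablation against activation 8, 13 and 9 of them were higher in ablation, with medians of 0.24, 0.10 and 0.21, beside 51.2% of all tested genes.

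A pair of mitochondrial ribosomal proteins carry names outside the rule. tko, the S12 protein of the decoding site, had 57.7 FPKM in ablation, 34.6 FPKM in activation and 51.6 FPKM in control brains, and its ablation against activation p was 0.140 in the authors' deposited table. bonsai, the S15 protein, had 43.6 FPKM in ablation, 52.9 FPKM in activation and 33.0 FPKM in control brains. Both lay within the range of the members.

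Set beside other large complexes, the members stood far below the cytoplasmic ribosome and below the respiratory chain. The median gene sum of 73 tested cytoplasmic ribosomal protein genes was 3936 FPKM in ablation and 4066 FPKM in control brains, and of 64 nuclear respiratory chain and ATP synthase genes 192 FPKM in ablation and 213 FPKM in control brains. In ablation against activation the median log2 change of the cytoplasmic ribosomal protein genes was -0.12, with 16 of 75 higher in ablation. For the respiratory genes it was 0.08 with 42 of 65 higher, and for proteasome genes -0.09 with 8 of 33 higher. In activation against control the medians were -0.0047 for cytoplasmic ribosomal protein genes, -0.13 for respiratory genes and -0.05 for proteasome genes, beside -0.12 for the members. Differences between the lists were not tested.

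**Figure D4:**
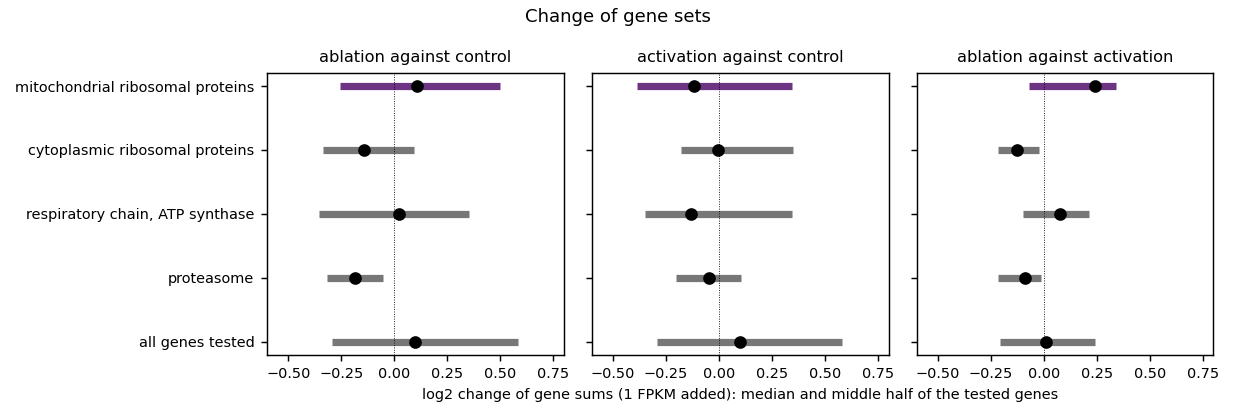
Median (point) and interquartile range (bar) of the log2 change of gene sums in the members, in 3 other gene sets and in all tested genes, for the 3 comparisons. In the right panel the members have a median of 0.24 and cytoplasmic ribosomal protein genes one of -0.12, and the member bars cross 0 in all 3 panels.

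Markers of neurons, glia and neuroblasts were all at 1 FPKM or more in each group, and their summed levels also differed between the groups. The 5 neuron markers summed to 295 FPKM in ablation and 231 FPKM in control brains (5 of 5 higher in ablation), and to 270.2 FPKM in activation and 225 FPKM in control brains (5 of 5 higher in activation). The 4 glia markers summed to 497 FPKM in ablation and 423 FPKM in control brains, to 313 FPKM in activation and 412 FPKM in control brains, and to 489.6 FPKM in ablation and 315 FPKM in activation brains. Of these 4, 3 were higher in ablation than in control (median log2 change 0.34). Although the sum was lower in activation than in control, 2 of the 4 were higher in activation (median -0.06). Between the manipulated groups 3 of the 4 were higher in ablation (median 0.11). The 4 neuroblast markers summed to 241 FPKM in ablation and 238 FPKM in control brains, and to 294 FPKM in activation and 232 FPKM in control brains. Between the manipulated groups they summed to 237 FPKM in ablation and 296 FPKM in activation brains, 0 of 4 being higher in ablation (median log2 change -0.32). Sums of the markers of other tissues differed as well. The 5 midgut markers summed to 1211 FPKM in ablation and 7.14 FPKM in control brains, and to 2.82 FPKM in activation and 6.97 FPKM in control brains. In control 2 of the 5 and in activation 3 of the 5 were at 0. The 5 fat body markers summed to 329 FPKM in ablation and 124 FPKM in control brains, and to 35.2 FPKM in activation and 121 FPKM in control brains. The 4 cuticle markers summed to 476 FPKM in ablation and 1558 FPKM in control brains, and to 226 FPKM in activation and 1515 FPKM in control brains. The 4 salivary gland markers summed to 154 FPKM in ablation and 241 FPKM in control brains, and to 59.3 FPKM in activation and 235 FPKM in control brains. In ablation against control 2 of these 4 were nevertheless higher in ablation (median log2 change 0.03), and in activation against control 1 of the 4 was higher in activation. The 5 muscle markers summed to 69.9 FPKM in ablation and 54.9 FPKM in control brains, and to 29.6 FPKM in activation and 53.5 FPKM in control brains. Of these 5, 4 were higher in ablation than in control, and 2 were higher in activation than in control. The 3 haemocyte markers summed to 12.4 FPKM in ablation and 4.99 FPKM in control brains, 2 of 3 being higher in ablation. In activation they summed to 4.51 FPKM, beside 4.86 FPKM in control brains, with 1 of 3 higher in activation. All of the fat body, salivary gland and muscle markers were above 0 in each group. Between the manipulated groups, midgut markers summed to 1188 FPKM in ablation and 2.83 FPKM in activation brains, and fat body markers to 322 FPKM in ablation and 35.3 FPKM in activation brains. In the same comparison cuticle markers summed to 466 FPKM in ablation and 227 FPKM in activation brains (4 of 4 higher in ablation). Salivary gland markers had 151 against 59.5 FPKM (3 of 4 higher) and muscle markers 68.6 against 29.7 FPKM (5 of 5 higher). Neuron markers had 291 against 272 FPKM (5 of 5 higher). The part of these cells and tissues in the member values was not tested.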

How the data were processed

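RNA-seq of 6 samples in 3 groups was used. The submitters' processing notes name TopHat2, Cufflinks, Cuffdiff and the genome build dm3. For versions, options and strand handling, nothing is given in the sources used here. Deposited were 3 Cuffdiff tables with 21081 transcripts each, which name the activation group induction. The FPKM values deposited by the authors, 1 per group, are scaled separately in each table. The log2 ratio is the authors' deposited ratio of these values, and the deposited test statistic is a score. The deposited p-value and q-value are Cuffdiff's. The q-values were recomputed with the Benjamini-Hochberg method and differed by at most 5.15e-07. The smallest deposited p is 5e-05.

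CG numbers were matched to symbols by locus tag, then by a unique synonym, in a reference annotation of another build, which gave names only. Coordinates are the dm3 loci of the tables, counted from 1. Gene sums add all transcripts, and their changes are log2 ratios with 1 FPKM added, which understates low genes. Genes count as tested where a transcript has status OK. Members and lists were chosen with earlier results of these data known. Named members were the 4 highest and 4 lowest by the mean of ablation and control, and the 4 largest changes each way per comparison. Members with a transcript at 0 in 1 group and 14 with a described role were named too. Other genes are named from knowledge of their values. The adjustment and the median change of a gene list were tested on simulated data. Because the tables hold no values per sample, the deposited Cuffdiff test was used in place of a fit by sample. Alternatives were other thresholds, a minimum level, other pseudocounts, the main transcript, centring and normal p-values from the statistic. Values were computed in Python 3.11.15 (pandas 2.3.3, numpy 2.4.6, scipy 1.17.1) and plotted with matplotlib 3.10.9.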

Additional observations from a re-analysis of the deposited data

How the results depend on the processing

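Of 54 alternative values, 50 kept the direction and the side of the threshold or stayed within 0.1 log2 units of the value given, a tolerance set because no spread between pools is known. Part of the 50 could not have moved. Each member sum and tested member transcript reached the minimum level of 1 FPKM in a group of its comparison, so that alternative dropped no member. A stricter threshold cannot add to a count. The 50 are therefore no measure of how stable the results are. The other 4 concern counts at an unadjusted p. With a threshold of 0.1, 1 member (mRpS18C) passed in activation against control and 1 (mRpL40) in ablation against activation, where 6.21% and 5.6% of all tested transcripts passed. P-values of a normal distribution for the deposited test statistic were an alternative added after the data were seen. With them, 2 members passed 0.05 in ablation against control (mRpL33 and mRpS18C) and 3 in activation against control (mRpL33, mRpL34 and mRpS18C). Of the tested transcripts with a finite statistic, 0.8% and 1.27% did. The deposited p is not the normal p of the deposited statistic: mRpL33 had a statistic of 3.18 with p = 0.115 in the authors' deposited table of ablation and control. The cause was not tested. None of these was called after adjustment. Centring on the median gene gave median log2 changes of 0.02, -0.20 and 0.23 for ablation against control, activation against control and ablation against activation. Leaving out a pool could not be run. No paired analysis was possible because the tables hold no values per sample. Depth is unknown, so no counting interval can be given.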

Other observations

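A pair of older gene models in the tables cover mRpL37 and mRpS34 together with another gene each, and were kept out of the members. The model with CG6547, which spans mRpL37 and CG42633, had 11.4 FPKM in ablation and 27.1 FPKM in activation brains, a log2 ratio of -1.24 with p = 0.0047 in the authors' deposited table, where its q was 0.499. It was named after its values were seen. The same model had 11.6 FPKM in ablation and 17.8 FPKM in control brains, and 26.9 FPKM in activation and 17.4 FPKM in control brains. The model with CG13037, which spans mRpS34 and CG33257, had 41.9 FPKM in ablation, 43.7 FPKM in activation and 56.1 FPKM in control brains. Which of the genes in a model gives its reads is not known from these tables.

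The 13 protein messages of the mitochondrial genome, the templates of the mitochondrial ribosome, were listed at or near 0. The highest of them stood at 4.32 FPKM in ablation, 3.49 FPKM in activation and 1.82 FPKM in control brains, and 5 of the 13 were at 0 in ablation, 4 in activation and 8 in control. Only 2 to 4 of the 13 were tested in a comparison, so their levels cannot be read against those of the members here.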
